A study of Mus musculus with 3 samples.

Results

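The AP-1 family was described in chromatin RNA of mouse macrophages shortly after a bacterial signal, through 10 genes named by symbol: Fos, Fosb, Fosl1, Fosl2, Jun, Junb, Jund, Atf3, Batf and Maff. Each symbol matched 1 gene, so the family comprised 10 of 55536 annotated genes and 30 annotated transcripts. The samples were 3 libraries of bone marrow-derived macrophages from C57BL/6J mice, exposed for 15 min to lipid A at 100 ng/ml. Lipid A is the membrane anchor of lipopolysaccharide and the ligand of the receptor TLR4. RNA was taken from the chromatin fraction, which holds transcripts still attached to the template, and was sequenced after removal of ribosomal RNA. The libraries form 1 group, and no unstimulated library was analysed here, so each value is a level and not a response. The labels number 3 biological replicates that share a donor label, and give neither age nor sex.

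AP-1 is a dimer of basic leucine zipper (bZIP) proteins that binds short DNA elements in promoters and enhancers. Jun proteins pair with each other or with Fos proteins, while Fos proteins need a Jun partner to bind DNA. Fos, Fosb, Jun, Junb and Atf3 are immediate early genes, which kinases of the MAP kinase pathways switch on within minutes without new protein synthesis. In macrophages their products act with NF-kB at inflammatory genes.

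The libraries differed in ways that bear on every gene. They held 10974934, 21376404 and 14376665 expected counts in replicates 1, 2 and 3, and began from 1 µg, 250 ng and 500 ng of RNA. Protein-coding genes took 23.9%, 16.7% and 25.3% of all transcripts per 1000000 (TPM), so that a gene's TPM is lowered in replicate 2 where other RNA fills the library. Values are therefore also given after rescaling to a sum of 1000000 TPM over the 22028 protein-coding genes, called scaled TPM. All 10 macrophage markers reached 1 TPM in every library, and summed to 900, 526 and 938 TPM in replicates 1, 2 and 3. Of 5 markers each for T cells, B cells, neutrophils, mast cells, dendritic cells, stromal cells and erythroid cells, 0 did so. These 7 lists summed to between 0.02 and 4.37 TPM per library. In a second deposited quantification of the same libraries, 1 T cell, 3 dendritic cell and 2 stromal markers reached 1 TPM, and the summed T cell markers stood at 19.2, 13.4 and 22.4 TPM. Most of that sum was Cd3d, which averaged 16.1 ± 4.35 TPM there (SD, n = 3) and 0.00667 TPM in the gene table. Cd3g averaged 1.28, Trac 0.661, Lck 0.172 and Cd3e 0.116 TPM in the second quantification. The part of other cells in the values below was not tested, and in these bulk samples fewer cells of a type and less RNA per cell cannot be told apart.

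Promoter stretches of some members are printed from the annotation, and exon-intron boundaries of others further on. The promoter stretches are the 120 bases before the RefSeq start (GRCm38.p6), in the direction of the gene. They are shown for 4 members as examples of windows that hold 1 of the elements below. The Batf stretch, with TGACGT at -98 to -93, runs into an annotated exon and is not shown. The Atf3 stretch, which also reaches the start of an annotated model, is shown, and of the Maff starts 1 is shown. These RefSeq starts of Atf3 and Maff lie 34706 and 899 bases downstream of the GENCODE gene starts. For Atf3 the stretch before the GENCODE gene start was not searched. Capitals mark TGACGT (the core of the cAMP response element), its full form TGACGTCA, or TGACATCA (the Jun variant of the AP-1 element), on either strand. TGACGTCA contains TGACGT on both strands, so the 2 overlap.
Fos, chr12:85473770-85473889, plus strand: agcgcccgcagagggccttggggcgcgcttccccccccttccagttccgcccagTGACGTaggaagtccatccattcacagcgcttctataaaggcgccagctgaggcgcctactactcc
Jun, chr4:95052223-95052342, minus strand: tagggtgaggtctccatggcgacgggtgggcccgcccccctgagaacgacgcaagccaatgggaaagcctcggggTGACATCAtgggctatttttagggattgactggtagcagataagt
Atf3, chr1:191183334-191183453, minus strand: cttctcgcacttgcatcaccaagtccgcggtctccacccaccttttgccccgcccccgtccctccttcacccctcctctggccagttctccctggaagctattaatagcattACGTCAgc
Maff, chr15:79347400-79347519, plus strand: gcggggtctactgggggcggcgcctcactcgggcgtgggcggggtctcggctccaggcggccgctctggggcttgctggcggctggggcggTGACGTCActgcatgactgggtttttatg

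In the Fos promoter TGACGT lies at -66 to -61 from the start and TATAAA, the TATA box, at -33 to -28. In the Jun promoter TGACATCA lies at -45 to -38, downstream of CCAAT at -65 to -61. The Atf3 stretch holds ACGTCA, the reverse complement of TGACGT, at -8 to -3, where the GENCODE model Atf3-201 begins. The Maff stretch, from the 2nd of 3 Maff starts, holds TGACGTCA at -29 to -22. Windows of 250 bases were found for 9 of the 10 members, 11 windows in all. TGACGT was in windows of Fos, Atf3, Batf and Maff, and in 6.47% of all 32851 windows. TGACATCA was in windows of Jun and Maff (2.93% of all windows), TGACGTCA in 1 of Maff (1.55%) and TATAAA in that of Fos (12.4%). TGACTCA, the classical AP-1 element, was in none of the 11 (4.46% of all windows), and neither was the CArG box, which SRF binds (1.47%). CCAAT was in windows of Jun and Junb (33.8%). A match describes letters in a window and not binding. Bases more than 250 upstream of a start were not searched, so a missing match does not show that a gene lacks the element.

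Of the 10 members, 9 had at least 1 TPM in all 3 libraries, where 42.4% of protein-coding genes did. At 10 TPM the count was 6, against 16.4% of protein-coding genes. The 6 were Fos, Junb, Atf3, Fosb, Jun and Fosl2. The next 3, Jund, Batf and Maff, averaged between 4.54 and 5.67 TPM, and Fosl1 lay near the floor of 3 counts. The family summed to 638, 562 and 662 TPM in replicates 1, 2 and 3, or 621 ± 52.1 TPM (SD, n = 3). That was 0.289% ± 0.042 of all protein-coding TPM (SD, n = 3). The median member stood at percentile 93.9 of protein-coding genes by mean log2(TPM + 1).

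**Figure D1:**
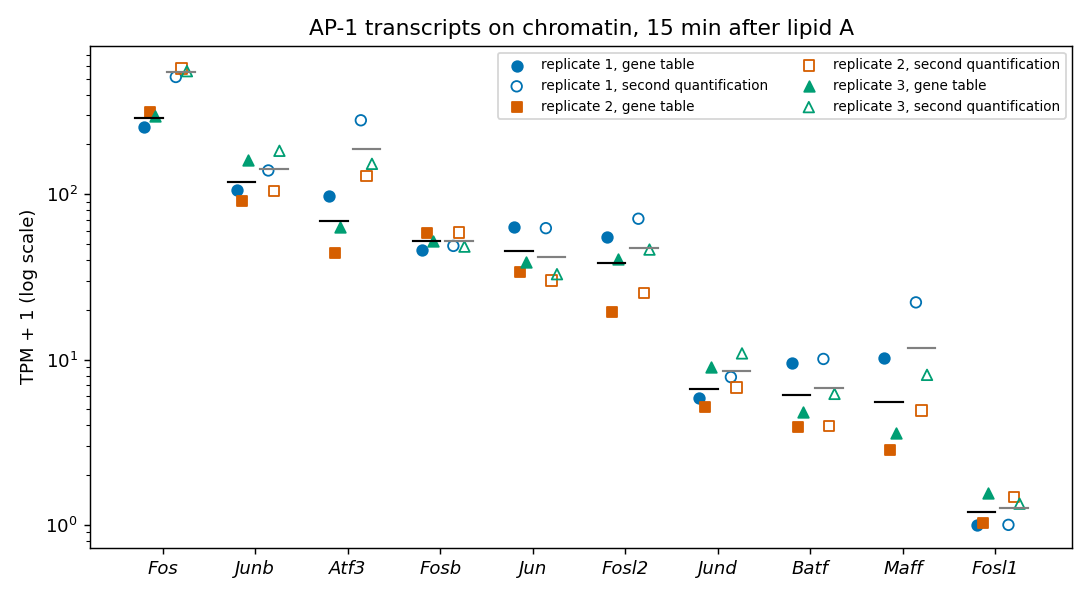
TPM + 1 (log axis) of the 10 AP-1 genes in replicates 1, 2 and 3, from the gene table (filled, with the mean as a black line) and from the second quantification (open, grey line). Fos, at 252 to 312 TPM in the gene table, sits above all other members, and Fosl1 lies at 0 to 0.56 TPM.

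The Fos subfamily held most of the family's RNA. Fos (chr12:85473890-85477273, GRCm38), the classical partner of Jun, had 252, 312 and 297 TPM in replicates 1, 2 and 3 (287 ± 31.1, SD, n = 3), on 4504, 9557 and 5828 expected counts. It ranked 45th from the top among 22028 protein-coding genes, and took 39.5%, 55.5% and 44.8% of the family's TPM. Its values lay close together and above those of every other member in each library. After rescaling, replicate 2 stood apart, with 1056, 1874 and 1172 scaled TPM. By counts per 1000000 protein-coding counts, which ignore transcript length, the values were 587, 741 and 607. Replicate 2 was thus highest on each scale, by a smaller margin in counts than in scaled TPM.

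Fosb (chr7:19302696-19310051), a close relative of Fos known for a short form in neurons, had 44.7, 57.1 and 51.1 TPM (51.0 ± 6.19, SD, n = 3). Fosl2 (chr5:32135801-32157842), which encodes Fra-2, had 53.8, 18.4 and 39.8 TPM (37.3 ± 17.8, SD, n = 3). Fosb was highest in replicate 2, where Fosl2 was lowest. In TPM the Fosb values lay close together, but on the scaled values they were 187, 342 and 202. Fosl1 (chr19:5447547-5455946), which encodes Fra-1 and is commonly induced later than Fos, had 0, 1.3 and 3.3 expected counts, or 0, 0.03 and 0.56 TPM. The 0 in replicate 1 allows up to 0.133 TPM, and 3 counts were worth 0.0584 TPM in replicate 2 and 0.506 TPM in replicate 3. Fosl1 was therefore at or near the floor in every library, which limits detection and does not show absence. Its exons overlap the span of Ccdc85b on the other strand over 1163 bases.

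In the Jun subfamily Junb was the most abundant. Junb (chr8:84974484-84978718), a Jun protein with weaker activation than Jun in many settings, had 106, 89.4 and 160 TPM (118 ± 36.9, SD, n = 3) and ranked 250th. Jun itself (chr4:95049034-95052222), the founding subunit, had 62.7, 32.9 and 37.8 TPM (44.4 ± 16.0, SD, n = 3). Junb was above Jun in all 3 libraries, by 1.68, 2.72 and 4.23 times. Jund (chr8:70698949-70700616), which most cells express without stimulation, had 4.83, 4.18 and 8 TPM (5.67 ± 2.04, SD, n = 3) and ranked 6490th. Jund rested on 96.1, 189 and 178 expected counts.

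All 3 Jun genes have neighbours that can share reads, and strand use in the counting is not given in the sources used here. The antisense gene Gm11175 spans 919 exon bases of Jund and had 8.86, 26.3 and 13.6 counts in replicates 1, 2 and 3. Junos covers 689 exon bases of Jun from the other strand, with 14.0, 17.2 and 22.1 counts. Prdx2, a peroxiredoxin gene, overlaps Junb over 173 exon bases. These antisense counts were small beside those of Jun (2544, 3066 and 1743) and larger in proportion for Jund. In the second quantification the order of these proportions was the other way round, with Junos at 21.2, 5.01 and 13.1 TPM beside Jun at 61.3, 29.1 and 31.8 TPM, and Gm11175 at 0.807, 0 and 0 TPM beside Jund at 6.83, 5.76 and 9.89 TPM. The RefSeq start of Jund lies 1210 bases upstream of the GENCODE start, so RNA from that stretch has no place in the GENCODE model.

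Among the more distant partners Atf3 was prominent. Atf3 (chr1:191170296-191218039), a stress-induced factor known to restrain TLR4-induced cytokine genes, had 96.8, 43.4 and 62.1 TPM (67.4 ± 27.1, SD, n = 3), and ranked 634th. Batf (chr12:85686669-85709087), which pairs with Jun proteins and lacks an activation domain, had 8.52, 2.90 and 3.79 TPM on 51, 41 and 29 expected counts. The exact 95% Poisson intervals of those counts were 38.0 to 67.1, 29.4 to 55.6 and 19.4 to 41.6. Maff (chr15:79346621-79359076), a small Maf protein that also lacks an activation domain, had 9.19, 1.84 and 2.59 TPM on 158, 57 and 54 expected counts. All 3 genes were highest in replicate 1. For Maff the highest library exceeded the lowest 4.99 times in TPM, a ratio that was 2.94 for Batf and 1.24 for Fos. On scaled TPM the contrast with Fos was smaller. Maff had 38.5, 11.0 and 10.2, Batf 35.7, 17.4 and 15.0, and Fos 1056, 1874 and 1172 scaled TPM in replicates 1, 2 and 3.

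Ordered by mean TPM, the members ran Fos, Junb, Atf3, Fosb, Jun, Fosl2, Jund, Batf, Maff and Fosl1. A neighbouring pair was taken as ordered where the log2(TPM + 1) difference had 1 sign in all 3 libraries and its mean exceeded its SD. This held for 4 of 9 pairs. Fos exceeded Junb by 1.31 ± 0.46, Junb exceeded Atf3 by 0.83 ± 0.63, Fosl2 exceeded Jund by 2.44 ± 0.70, and Maff exceeded Fosl1 by 2.00 ± 1.17 (log2, SD, n = 3 each). The other 5 neighbouring pairs, from Atf3 and Fosb down to Jun and Fosl2 and from Jund and Batf to Batf and Maff, did not meet the rule. Pairs that are not neighbours were not put to it; Atf3, for one, had more TPM than Jun and than Fosl2 in all 3 libraries. The place of Atf3 depends on the quantification. In the second quantification the Junb minus Atf3 difference was -0.35 ± 0.64 (log2, SD, n = 3), and without replicate 2 or replicate 3 it was 0.74 or 0.58 and no longer exceeded its SD. Without replicate 1, 7 pairs met the rule.

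The second quantification gave the same 9 members at 1 TPM or more, where 53.1% of protein-coding genes reached it. It gave Fos 511, 573 and 554 TPM, 1.91 ± 0.10 times the gene table (SD, n = 3). Atf3 had 279, 128 and 152 TPM there, 2.76 ± 0.28 times its gene table level (SD, n = 3). For Maff the ratio was 2.39 ± 0.31, while for Fosb it was 1.00 ± 0.07 and for Jun 0.902 ± 0.069 (SD, n = 3 each). Over protein-coding genes averaging 1 TPM or more the median ratio was 1.61, with quartiles of 1.28 and 2.16. Fos and Jund thus lay between the quartiles, Atf3 and Maff above them, and Fosb, Jun, Junb, Fosl2 and Batf below.

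Members differed in the library where they were highest. On scaled TPM, 5 of the 9 members above the floor were highest in replicate 1, namely Maff, Batf, Fosl2, Atf3 and Jun, where 35.2% of protein-coding genes with a mean of at least 1 TPM were. Fos and Fosb, 2 of 9, were highest in replicate 2 (31.9% of genes), and Junb and Jund, 2 of 9, in replicate 3 (32.9%). With so few members these shares describe the 9 genes. Deviations from a gene's mean of log2(scaled TPM + 1) were -0.33, 0.50 and -0.18 for Fos in replicates 1, 2 and 3, and -0.33, 0.54 and -0.22 for Fosb. They were 1.18, -0.54 and -0.64 for Maff and 0.73, -0.26 and -0.47 for Batf. The SD of Maff over libraries was larger than that of 98.6% of protein-coding genes with a mean of at least 1 TPM, while the figure was 79.0% for Fosb, 75.3% for Fos and 43.7% for Junb.

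**Figure D2:**
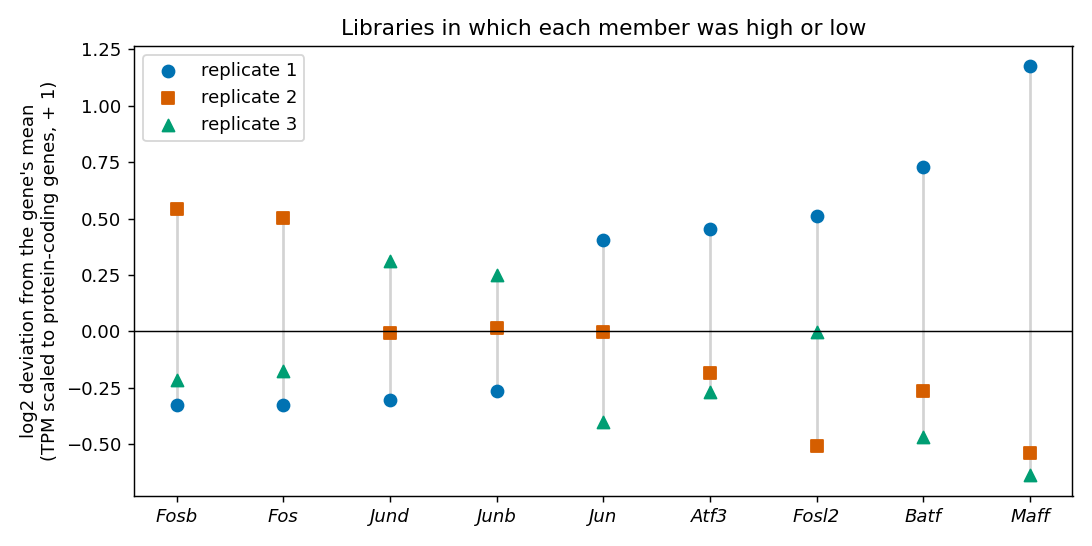
Deviation of each of 9 AP-1 members from its own mean of log2(scaled TPM + 1) in replicates 1, 2 and 3, ordered by replicate 1. Fosb and Fos sit high in replicate 2 only, Junb and Jund highest in replicate 3, and the remaining 5 highest in replicate 1, up to 1.18 for Maff.

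Ratios between members differed in how much they varied, and in part with the unit. Junb to Jund was 21.9, 21.4 and 20.0 by TPM in replicates 1, 2 and 3 (21.1 ± 0.982, SD, n = 3), while each gene's own TPM varied by 1.79 and 1.91 times. By expected counts this ratio was 23.6, 22.8 and 21.5, and in the second quantification 20.2, 18.0 and 18.4. Fos to Fosb varied least by TPM of the 36 pairs among the 9 members above the floor, at 5.65, 5.47 and 5.80 (5.64 ± 0.164, SD, n = 3), with both genes nearly level in TPM. By expected counts it was 2.17, 1.595 and 2.14, lowest in replicate 2, and in the second quantification 10.7, 9.93 and 11.7. Atf3 to Jun was 1.54, 1.32 and 1.64 by TPM, 0.889, 0.769 and 0.951 by expected counts, and 4.55, 4.39 and 4.77 in the second quantification. By TPM the ratio Fosb to Maff varied most, with a coefficient of variation of 70.8%, against 2.90% for Fos to Fosb. These pairs were singled out after all 36 had been computed, on 3 points each.

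The genes most like the 4 highest members were taken by Euclidean distance over the 3 libraries of log2(scaled TPM + 1), which weighs level and pattern together. For Fos these were Ftl1, Macf1 and Ahnak, with distances of 0.150 to 0.293. Ftl1 has many processed copies, so its reads are uncertain. For Fosb they were Myo1c, Myh9 and Myo18a, at 0.135 to 0.155. For Junb they were Arhgap19, Stat2 and Cipc, and for Atf3 Rnf149, Ptp4a1 and Cspp1, all between 0.193 and 0.248.

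Reads of several members were assigned to transcript models that run across an exon-intron boundary. Boundaries are judged against the gene's first-numbered model (Fos-201 and so on), which is spliced and protein-coding. Jun and Jund have 1 model each and no intron, and the main Junb model has none either, so such a share can be given only for the other 7 members. Crossing models were annotated for Fos, Fosb, Fosl2, Batf and Fosl1. Boundaries within the leading crossing model of Fos, Fosb, Fosl2 and Batf are shown with 25 bases on each side (GRCm38, direction of the gene). Capitals mark the first or last 2 intron bases (GT, AG), and in Fos-201 the bases on both sides of the joined exons.
Fos-203, end of intron 1, chr12:85474910-85474959, plus strand: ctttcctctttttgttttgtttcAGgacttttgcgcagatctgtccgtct
Fos-201, exon 1 joined to exon 2, intron removed, chr12:85474156-85474959, plus strand: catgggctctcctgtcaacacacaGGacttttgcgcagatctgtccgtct
Fosb-204, start of intron 1, chr7:19309281-19309330, minus strand: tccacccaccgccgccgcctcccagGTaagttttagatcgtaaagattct
Fosl2-202, start of intron 1, chr5:32136781-32136830, plus strand: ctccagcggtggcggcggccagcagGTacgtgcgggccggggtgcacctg
Batf-202, start of intron 2, chr12:85689348-85689397, plus strand: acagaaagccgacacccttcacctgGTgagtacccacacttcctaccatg

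For Fos the spliced, coding model Fos-201 took 56.04%, 34.4% and 53.6% of the gene's abundance in replicates 1, 2 and 3. Fos-203, a non-coding model of 795 bases that keeps 244 bases of intron 1 joined to exon 2, took 35.3%, 41.7% and 46.4%. Fos-202, which keeps 24 intron bases, took 8.65%, 23.9% and 0%. Both crossing models are much shorter than Fos-201 (2108 bases), so the same reads weigh more in TPM. By expected counts the crossing models held 18.7%, 33.5% and 20.3% of Fos, and in the second quantification 64.3%, 81.0% and 70.4% by TPM, so whether they hold the larger part turns on the unit. The higher Fos level of replicate 2 lay in these crossing models: they stood at 464, 1229 and 543 scaled TPM, while Fos-201 stood at 592, 645 and 628. The second quantification showed the same order, with 738, 1782 and 939 scaled TPM for the crossing models and 315, 372 and 340 for Fos-201. The summed crossing models stood far above the other libraries in replicate 2 in both, while Fos-201 was nearly level. Fos-203 stood at 373, 781 and 543 scaled TPM in replicates 1, 2 and 3, and Fos-202 at 91.3, 448 and 0. In the second quantification Fos-203 stood at 639, 1278 and 851 scaled TPM and Fos-202 at 98.5, 504 and 88.1. Part of the replicate 2 level thus lay in Fos-202, which keeps only 24 intron bases. The division of shared exon reads between Fos models rests on how each quantification assigned them.

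For Fosb the single-exon model Fosb-204, which holds introns 1 and 2 whole and part of intron 3 (2461 intron bases in all), took 58.8%, 62.2% and 72.02%. The spliced model Fosb-201 took 21.6%, 32.9% and 14.0%. Here both classes were highest in replicate 2. Crossing RNA stood at 110, 213 and 145 scaled TPM, and the remaining models at 77.1, 129 and 56.5. The short form of FosB arises from removal of a stretch within the last exon, and the 2 models with that removal, Fosb-206 and Fosb-207, averaged 2.28% and 0.373%. In the second quantification Fosb-206 averaged 5.94%, with 3.27%, 12.6% and 1.95% in replicates 1, 2 and 3.

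Fosl2 had the largest crossing share. Fosl2-202, which runs from exon 1 through 2839 bases of intron 1, took 63.6%, 62.7% and 69.4%, and Fosl2-203, with 304 intron bases, took 15.3%, 18.2% and 16.5%. The spliced Fosl2-201 was left with 21.04%, 19.1% and 14.1%. Together the crossing models made up 81.9% ± 3.55 of Fosl2 by TPM and 67.6% ± 5.35 by expected counts (SD, n = 3 each). Batf-202, which holds 451 bases of intron 2, took 73.6%, 63.4% and 52.6% on only 28, 17 and 9 counts. By expected counts its share was 54.9%, 41.5% and 31.0%, the smaller part in replicates 2 and 3.

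**Figure D3:**
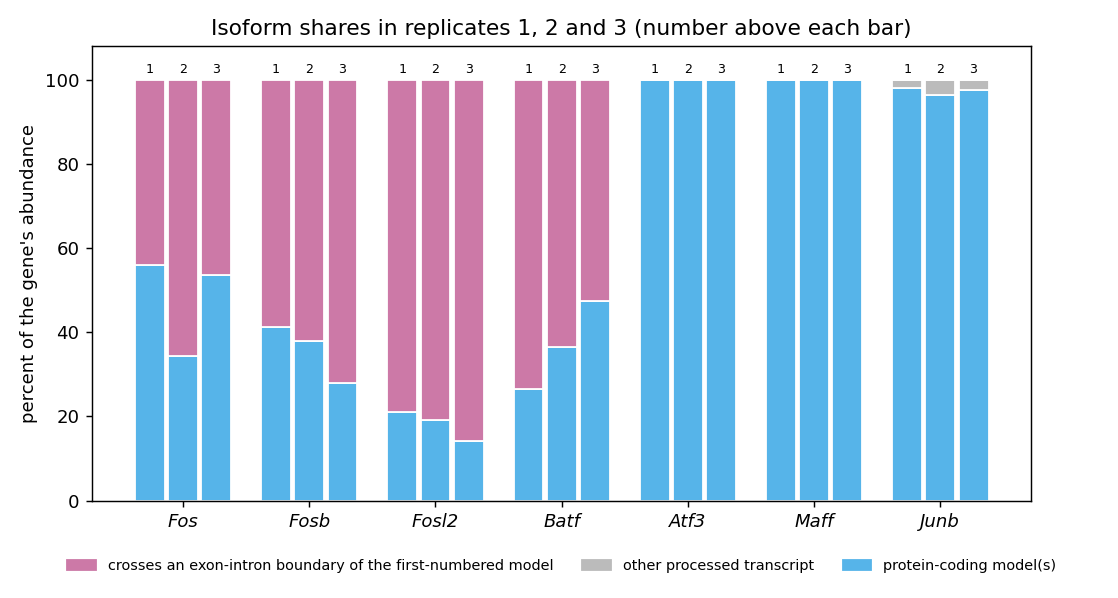
Percent of each gene's abundance in models that cross an exon-intron boundary of the first-numbered model (pink), other non-coding models (grey) and coding models (blue), with 1 bar for each of replicates 1, 2 and 3. In these TPM-based shares crossing models took the larger part of Fosb, Fosl2 and Batf in every library and of Fos in replicate 2 alone; by expected counts they took 18.7% to 33.5% of Fos and 31.0% to 54.9% of Batf. None is annotated for Atf3, Maff or Junb.

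**Figure D4:**
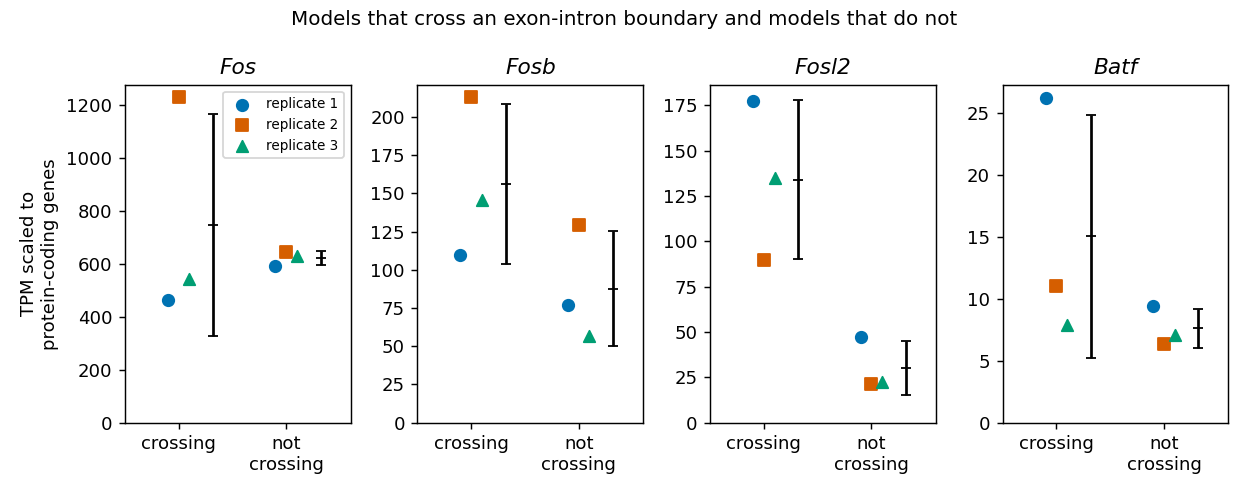
Scaled TPM of crossing and non-crossing models of Fos, Fosb, Fosl2 and Batf in replicates 1, 2 and 3, with mean ± SD beside the points. Fos models that do not cross lay between 592 and 645, while those that cross reached 1229 in replicate 2.

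Over the whole family, models annotated as retained introns held 10.7% ± 1.27 of the TPM, where over all protein-coding genes they held 39.3% ± 2.53 (SD, n = 3 each). Among the members, models counted as retained introns came only from Fosb, Fosl2, Batf and Fosl1, the last near the floor. They held 64.3% ± 6.86 of Fosb, 81.9% ± 3.55 of Fosl2 and 63.2% ± 10.5 of Batf by TPM (SD, n = 3 each). Fos, Jun, Junb, Jund, Atf3 and Maff contributed 0% to the class. The family share thus depends on which members carry this annotation, and does not show low intron retention. The crossing models of Fos carry another annotation. Counting every crossing model, the share of the family was 35.6% ± 8.89 (SD, n = 3), a class added after the data were seen and not computed for other genes. Intronic reads outside any annotated model have no row in these tables.

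The isoforms of Atf3 and Maff were not resolved. Atf3-201 took 22.1%, 69.3% and 52.3% of Atf3 in replicates 1, 2 and 3, and Atf3-203 the other 77.9%, 30.7% and 47.7%. In the second quantification Atf3-201 averaged 40.7% ± 4.86 and Atf3-202, a non-coding model of 517 bases, 59.3% ± 4.93 (SD, n = 3 each), while Atf3-203 averaged 0.060%. For Maff the leading models were Maff-204 (35.1%, 52.5% and 26.8%) and Maff-202 (44.04%, 0% and 45.2%), and Maff-204 averaged 60.0% ± 4.12 in the second quantification (SD, n = 3). Junb-201 held 97.3% ± 0.819 of Junb in the first table and 75.6% ± 3.29 in the second (SD, n = 3 each).

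Genes around the family in its pathway were mostly present on chromatin. Of 34 listed kinases and factors that act upstream of AP-1 genes, 32 were matched and 29 reached 1 TPM in all 3 libraries. Over all protein-coding genes 42.4% did. Highest were Mef2c and Mef2a, factors that bind the Jun promoter, at 82.9 ± 34.6 and 75.5 ± 38.9 TPM, and Map3k8, the kinase that drives ERK after TLR4, at 75.8 ± 42.4 TPM (SD, n = 3 each). Lowest were Mapk10, the JNK gene of neurons, at 0.18 ± 0.0721 TPM, and the p38 gene Mapk11 at 0.993 ± 0.529 TPM (SD, n = 3 each). All 23 matched regulators of AP-1 protein and mRNA, of 25 listed, reached 1 TPM. Zfp36, whose product destabilises AU-rich mRNA, led at 170 ± 81.6 TPM, then the corepressor gene Ncor1 at 161 ± 36.5 TPM (SD, n = 3 each). Men1, which encodes menin, a binding partner of JunD, was among the lowest at 3.74 ± 1.44 TPM (SD, n = 3).

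Of 34 other bZIP genes that could pair with the family or compete with it, 28 reached 1 TPM in all libraries. The share over all protein-coding genes was 42.4%. Nfe2l2, which encodes the oxidative stress factor Nrf2, had 311, 53.8 and 129 TPM in replicates 1, 2 and 3 and led the list. The macrophage factor Maf followed at 52.9 ± 25.4 TPM and Tef at 44.8 ± 11.7 TPM, while Hlf and Mafa were near 0, at 0.0133 and 0.01 TPM on average. Among 20 genes widely used as AP-1 targets, 15 reached 1 TPM, beside the same 42.4%. Vegfa stood at 222 ± 17.1 TPM, Spp1 at 117 ± 67.8 TPM and Tnf at 75.8 ± 70.8 TPM (SD, n = 3 each). By library Tnf had 156, 22.6 and 48.6 TPM and Spp1 191, 57.1 and 103 TPM, so replicate 1 alone set much of each average. The matrix metalloproteinase genes Mmp3 and Mmp9 were lowest, at 0.0733 and 0.0967 TPM on average, with 0 TPM in 2 and 1 of the 3 libraries. By median the 10 AP-1 members stood at 40.9 TPM, the regulators at 24.7, the upstream genes at 16.5, the other bZIP genes at 14.4 and the targets at 9.40 TPM, beside 0.567 TPM over all protein-coding genes.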

How the data were processed

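Each of the 3 libraries had a gene table, with expected counts and TPM, and a transcript table, which adds the percent of its gene's abundance that each isoform takes, per the file headers. A second transcript table deposited by the authors gives estimated counts and TPM, here the second quantification, summed per gene. Reads were assigned to GENCODE M21 on mm10, per the deposited notes and the labels. The gene table held 81881 features, of which 55536 were annotated genes, and its TPM is shared over all of them. What the remaining features are, and whether the second quantification spans them, was not examined. The programs were not given in the sources used here. The members and gene lists were chosen with earlier results of these data known. Genes named were all 10 members, the 3 highest and 2 lowest of each list, the 3 nearest genes of 4 members and the 2 leading isoforms. Intervals and floors (3 counts) cover counting error only. With 1 group no test was run, and the SD measures spread between these libraries, which may be technical. Counts were rounded for edgeR 4.0.16 (TMM) and DESeq2 1.42.0 (size factors), used as alternatives. Other steps used Python 3.11.15. Of these only the deviation of a gene in replicate 1 was tested on simulated data. Sequences came from RefSeq promoters (GRCm38.p6) and GENCODE M21 transcripts. Of the listed symbols 4 had no match, among them Mkl1, Mkl2 and Rfwd2. Some genes that the naming rule takes are not reported here.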

Additional observations from a re-analysis of the deposited data

How the results depend on the processing

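No paired analysis was possible because the libraries form 1 group. The summed level of the family, 621 TPM, was 2887 on scaled TPM and 1036 in the second quantification, and 600 to 650 leaving out 1 library. The median percentile, 93.9, was 89.5 among genes averaging 0.1 TPM or more, 89.7 in the second quantification, and 92.5 to 94.4 leaving out 1 library. Pairs ordered beyond their spread numbered 4 to 7 leaving out 1 library and 4 in the other alternatives, and Junb over Atf3 turned to -0.35 (log2) in the second quantification. The members highest in replicate 3 numbered 1 in place of 2 on DESeq2 size factors, where Junb was highest in replicate 2; the library in which a member was highest was the same for the other 8 there, and for all 9 under TMM, the second quantification and a pseudocount of 0.1. The retained-intron share of the family, 10.7%, was 18.6% of expected counts, 7.14% in the second quantification and 35.6% when every crossing model was counted, and 10.2% to 11.4% leaving out 1 library. At 10 TPM in place of 1, 15 other bZIP genes, 19 upstream genes, 14 regulators and 9 targets passed. Of all protein-coding genes 16.4% did. The causes were not tested. Depth limits Fosl1, Batf and Maff most, with at most 158 counts in a library.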
